A study of Mus musculus with 3 samples.

Results

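The protein-coding olfactory receptor genes of mouse chromosome 7 were examined for H3K4me1 in pancreatic islets exposed to cytokines. Members were the genes that GENCODE M1 (mm9) annotates as protein-coding on this chromosome with a symbol starting with Olfr. There were 240 of them among 22350 protein-coding genes of chromosomes 1 to 19 and X, and they made up 11.6% of the protein-coding genes of chromosome 7. The rule uses the annotation alone and no measured value. The islets, the endocrine cell clusters of the pancreas, came from male and female CD1 mice of 8 to 12 weeks and were pooled over animals (the study's methods name the strain as ICR and give a narrower age range). They recovered after isolation and then spent 4 days in RPMI medium with TNFα at 0.16 ng/ml, IFNγ at 1.6 ng/ml and IL-1β at 0.25 ng/ml, a low dose chosen to resemble the onset of type 1 diabetes. H3K4me1 was measured by ChIP-seq in 1 library made from the pooled DNA of separate ChIP experiments, and the RNA libraries of untreated and cytokine treated islets and the H3K4me1 regions of untreated islets were not analysed here, so no effect of the cytokines could be measured. The regions were deposited as positions on a 200 bp grid with no read count or score. The depth is thus unknown, and there is no replicate. Intervals printed here for shares and densities are 95% exact intervals that cover counting error only.

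Olfactory receptors are G protein-coupled receptors of the nose. Each olfactory sensory neuron chooses a single receptor gene from the whole repertoire, and the other receptor genes stay silent in it, packed in heterochromatin. The genes lie in tandem clusters, most with a single coding exon. The mouse class I receptors, which resemble those of fish, sit together at a single locus of chromosome 7, whereas class II receptors are spread over many chromosomes. H3K4me1 marks active or poised enhancers and the flanks of active promoters, so its regions in islets are commonly read as regulatory sequence in use, or ready for use, in that tissue. Islets hold several endocrine cell types as well as vessel and immune cells, and a mark carried by few cells cannot be told apart from a weak mark in many.

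Inside the olfactory receptor clusters of chromosome 7, 4 H3K4me1 regions were found. The middle 300 bp of each is shown because these are the places where the mark reached into the clusters. The bases are those of the plus strand of mm9, and capitals mark CpG dinucleotides. The first comes from a region in Trim21 (chr7:109712751-109713050), the next from the region beyond the 3′ end of Olfr78 (chr7:109886851-109887150), the next from the region over the start of Trim6 (chr7:111367351-111367650), and the last from the region beside Olfr530 (chr7:147557251-147557550).
Trim21 region: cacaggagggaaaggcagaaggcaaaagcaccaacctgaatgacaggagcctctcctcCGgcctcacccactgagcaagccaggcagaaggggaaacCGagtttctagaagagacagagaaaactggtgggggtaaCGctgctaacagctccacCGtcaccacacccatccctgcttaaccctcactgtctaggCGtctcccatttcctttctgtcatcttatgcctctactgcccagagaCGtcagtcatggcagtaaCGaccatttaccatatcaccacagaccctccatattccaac
Olfr78 region: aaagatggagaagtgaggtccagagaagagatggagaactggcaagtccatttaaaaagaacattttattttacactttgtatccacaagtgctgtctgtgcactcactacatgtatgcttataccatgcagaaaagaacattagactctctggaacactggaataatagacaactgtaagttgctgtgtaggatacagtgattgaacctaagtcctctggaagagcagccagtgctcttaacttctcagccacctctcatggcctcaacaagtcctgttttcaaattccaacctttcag
Trim6 region: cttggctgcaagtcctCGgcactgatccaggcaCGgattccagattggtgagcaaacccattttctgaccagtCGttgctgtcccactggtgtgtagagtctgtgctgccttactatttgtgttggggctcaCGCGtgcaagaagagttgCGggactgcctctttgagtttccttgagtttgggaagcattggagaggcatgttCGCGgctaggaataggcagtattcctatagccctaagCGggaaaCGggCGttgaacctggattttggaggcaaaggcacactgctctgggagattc
Olfr530 region: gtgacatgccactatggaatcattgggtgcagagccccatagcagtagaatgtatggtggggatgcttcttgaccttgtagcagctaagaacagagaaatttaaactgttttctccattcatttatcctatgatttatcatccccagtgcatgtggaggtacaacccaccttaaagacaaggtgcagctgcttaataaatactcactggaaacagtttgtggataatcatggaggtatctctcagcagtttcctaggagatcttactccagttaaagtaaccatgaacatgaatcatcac
The printed stretches of the regions at Trim21 and Trim6 held 7 and 11 CpG, and those beside Olfr78 and Olfr530 held none.

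Only 1 of the 240 olfactory receptor genes, Olfr530, had an H3K4me1 region overlapping the gene or within 2 kb of a TSS. This was 0.417% of the members (0.0105 to 2.30%), against 67.1% of all protein-coding genes and 61.7% of the other protein-coding genes of chromosome 7 (1131 of 1832, 59.5 to 63.97%). No region overlapped the body of a member, which allows a share of up to 1.25%, whereas 59.1% of the other genes of the chromosome had a region over the gene and 64.5% of all protein-coding genes did. No member had its TSS covered by a region, against 37.8% of the other genes of the chromosome and 39.1% of all genes. Within 2 kb of a TSS alone the member count was again 1, against 57.5% of the other genes of the chromosome and 62.0% of all genes. The intervals of the members lay far below the shares of either group. Genes of one cluster share their nearest region, so the members are not independent observations and no test was made.

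Widening the limit to 20 kb added few members. A limit of 5 kb reached 2 members (0.833%, with 64.5% of the other chromosome 7 genes and 69.4% of all genes), and 20 kb reached 7 (2.92%, with 72.3% and 76.4%). At 100 kb the count was 54 members, or 22.5% (17.4 to 28.3%), with 81.6% of the other genes of the chromosome and 86.4% of all genes. Of the gene models, 138 of 240 (57.5%) start at their start codon and so carry no annotated 5′ untranslated exon, and for these the true start may lie upstream. The wider limits include sequence further upstream of every annotated start.

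Measured as distance, the TSS of a member lay a median of 313.0 kb from the nearest region, with quartiles of 127.6 and 502.8 kb. An interval for this median from the ranked distances was 268.1 to 360.3 kb. It takes the members as independent, which they are not, so it is likely too narrow. The range ran from 1.97 kb at Olfr530 to 976.7 kb at Olfr310. In 186 members (77.5%) the distance exceeded 100 kb and in 61 it exceeded 500 kb, while 18 members lay within 30 kb. Among the other protein-coding genes of chromosome 7 the median was 0.765 kb and 18.6% were beyond 100 kb, and over all protein-coding genes the median was 0.563 kb and 13.7% were beyond 100 kb. The upper quartile of the other chromosome 7 genes, 32.3 kb, was below the lower quartile of the members.

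**Figure D1:**
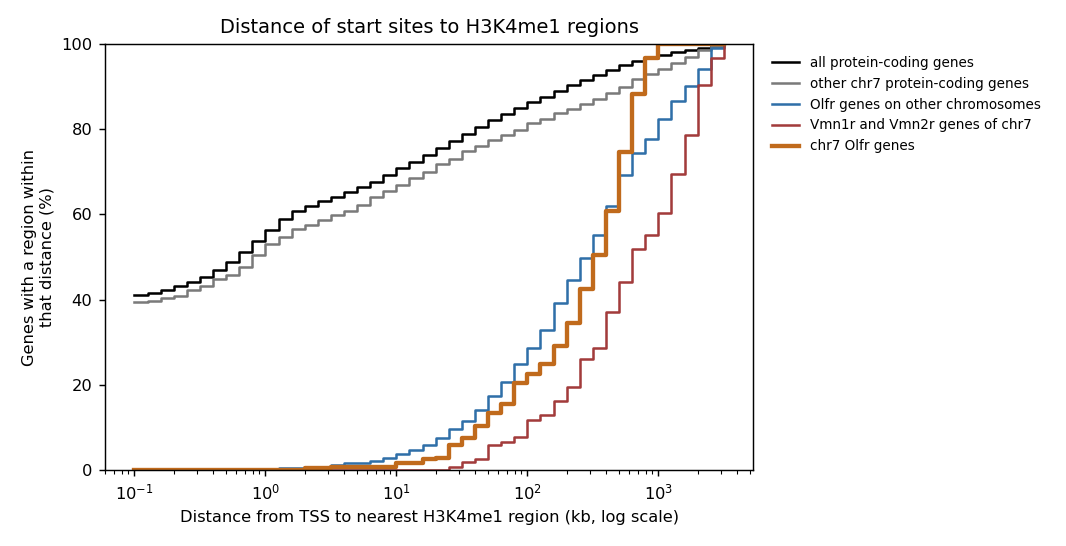
Cumulative share of genes (y axis, %) whose TSS has an H3K4me1 region within a given distance (x axis, kb, log scale) for 5 gene groups. The chromosome 7 olfactory receptor genes (thick line) stay near 0 up to about 20 kb, where 2.92% had a region by the rule, lie under the Olfr genes of other chromosomes up to about 400 kb and above them beyond 500 kb, reaching 100% by 1000 kb, while the other genes of chromosome 7 start near 40%.

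Other chemoreceptor genes were also rarely called. Of 873 Olfr genes on other chromosomes, 7 had a region by the same rule (0.802%, 0.323 to 1.65%), an interval that holds the 0.417% of chromosome 7. Their bodies were overlapped in 4 cases, none had a covered TSS, and the median distance was 252.0 kb. At 20 kb the share was 7.67% (6.00 to 9.64%) on the other chromosomes and 2.92% (1.18 to 5.92%) on chromosome 7, at 100 kb 28.8% and 22.5%. The 154 vomeronasal receptor genes of chromosome 7 (Vmn1r and Vmn2r), which encode pheromone receptors, had no region within 2 kb or within 20 kb. This allows up to 1.95% by a limit of 3 counts and 2.37% by the exact bound. At 100 kb these genes had 18 with a region (11.7%, 7.08 to 17.8%). Their median distance was 577.2 kb. These 3 receptor groups were not tested against each other.

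Olfr530, the single member called, is a gene of 1080 bp on the minus strand (147558486 to 147559565) in the cluster nearest to the end of the chromosome. Its region is 400 bp wide, the narrowest of the 4, and begins downstream of the coding unit: the edge lies 886 bp past the 3′ end of the gene and 1965 bp from the TSS, just within the limit of 2000 bp. The region held no CpG and 42.3% GC, and 100% of the 32 bp words sampled in it were found once in the genome, so reads could be placed there. The next member, Olfr1344, was outside the limit, with its TSS 2747 bp from a region of 2800 bp that lies in Gm16532, a gene whose annotation overlaps Olfr1344. Then followed Olfr522 at 8513 bp, Olfr549 at 9601 bp, Olfr559 at 13377 bp and Olfr550 at 13583 bp. Olfr522 faced a region beyond the edge of its cluster, and the last 3 faced the regions in Trim21 and beyond Olfr78.

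The start window of Olfr530 (250 bp before to 50 bp after the TSS, chr7:147559516-147559815, minus strand) and that of Olfr78 (chr7:109907936-109908235, minus strand) are shown, since these are the members whose genes lay nearest to a region. They are written in the direction of the gene from mm9, with capitals for CpG and for the letters TAATTA.
Olfr530 start window: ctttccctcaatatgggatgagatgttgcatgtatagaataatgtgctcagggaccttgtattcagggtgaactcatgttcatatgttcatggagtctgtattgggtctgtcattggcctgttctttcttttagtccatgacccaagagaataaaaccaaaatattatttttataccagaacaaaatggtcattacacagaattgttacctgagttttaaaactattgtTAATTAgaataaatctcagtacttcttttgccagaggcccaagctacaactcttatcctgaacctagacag
Olfr78 start window: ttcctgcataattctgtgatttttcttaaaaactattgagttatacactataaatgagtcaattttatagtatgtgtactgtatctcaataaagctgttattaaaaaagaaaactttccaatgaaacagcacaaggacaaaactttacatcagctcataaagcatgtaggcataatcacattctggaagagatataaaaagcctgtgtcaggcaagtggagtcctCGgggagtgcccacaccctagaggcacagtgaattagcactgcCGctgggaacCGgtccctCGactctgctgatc
The Olfr530 window held 36.7% GC, no CpG and 1 match to TAATTA. The Olfr78 window held 39.7% GC and 4 CpG, with no match.

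Some members are known outside the nose. Olfr78, a receptor for short-chain fatty acids that is expressed in kidney vessels and the carotid body, is the longest member at 18751 bp (109889235 to 109907985, minus strand). A region of 1200 bp lay 1635 bp past its 3′ end, 20.4 kb from its TSS, so it was not counted by the rule. Counting both ends of the gene gave 2 members, Olfr530 and Olfr78 (0.833%, against 63.5% of the other chromosome 7 genes and 68.1% of all genes). That region touched no protein-coding gene and held 6 CpG. Olfr558, a neighbour that also responds to short-chain fatty acids, lay 35.6 kb from the same region. Olfr17, a receptor widely used in mice with targeted reporters to follow axons of olfactory neurons, lay 272.6 kb from its nearest region. Olfr544, which has been described in the glucagon-producing cells of the islet, lay 75.6 kb from the region in Trim21 and was picked with its value already known.

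The 240 genes fell into 8 clusters when neighbours up to 500 kb apart were joined. The largest runs from Olfr543 to Olfr692 (109625287 to 112517869, 2.89 Mb), is the class I locus and holds 129 members with 28 other protein-coding genes. It held 3 regions, or 1.04 per Mb (0.214 to 3.03). The members there lay a median of 318.2 kb from a region, ranging from 9.60 to 731.0 kb. The cluster of 19 members from Olfr522 to Olfr541 (147347838 to 147891166, 0.543 Mb) held the 1 region beside Olfr530, or 1.84 per Mb (0.0466 to 10.3), and had a median distance of 94.5 kb. The other 6 clusters held no region.

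Of those 6, the longest runs from Olfr467 to Olfr519 (114958094 to 116037934, 1.08 Mb) with 40 members at a median of 307.1 kb (41.1 to 588.5 kb), and its count of 0 gives an exact Poisson upper bound of 3.42 regions per Mb (2.78 by a limit of 3 counts). The 25 members from Olfr693 to Olfr716 (113821048 to 114291843, 0.471 Mb) had a median of 483.3 kb, and the 15 from Olfr310 to Olfr292 (93417240 to 93843894, 0.427 Mb) had the longest, 834.1 kb, with every member at least 558.2 kb away. The 5 most distant members, Olfr310, Olfr309, Olfr308, Olfr307 and Olfr305, all belonged to it, between 882.2 and 976.7 kb. Olfr1344 to Olfr1350 (6392547 to 6523630, 0.131 Mb, 8 members) had a median of 47.9 kb. The pairs Olfr291 and Olfr290 (92002083 to 92065238) and Olfr520 and Olfr521 (106883655 to 106916640) lay at medians of 125.6 and 43.7 kb. These 3 clusters are short, and a count of 0 gives exact upper bounds of 28.1, 58.4 and 111.8 regions per Mb in them, all above the 27.7 of the rest of the chromosome. A limit of 3 counts gives 22.9, 47.5 and 90.9 per Mb, so that the first falls on either side of 27.7 by the bound used.

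**Figure D2:**
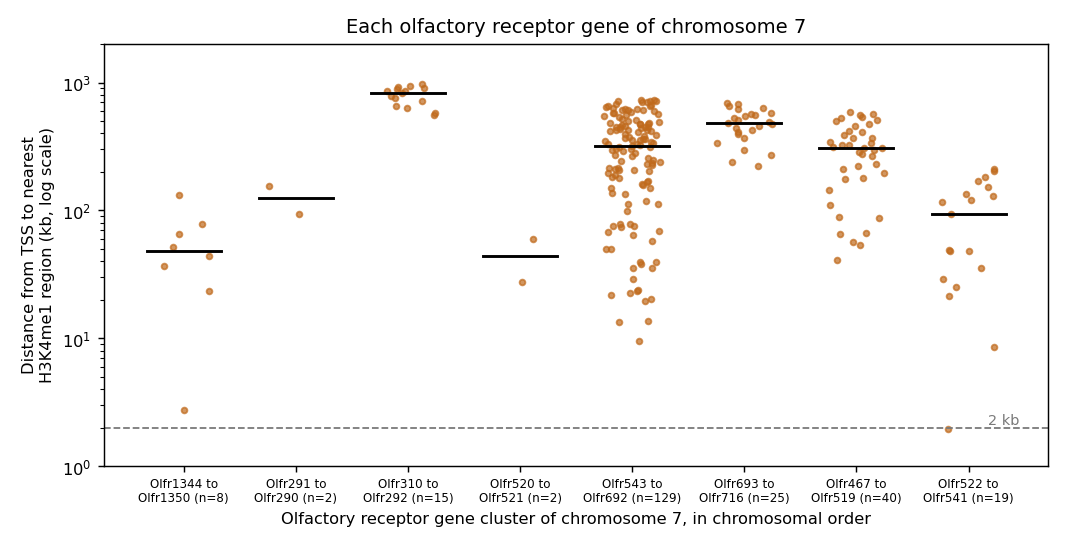
Distance from the TSS of each olfactory receptor gene of chromosome 7 to the nearest H3K4me1 region (y axis, kb, log scale) by cluster (x axis, in chromosomal order). Each point is a gene, the black line is the cluster median and the dashed line is the 2 kb limit, which Olfr530 alone passes at 1.97 kb.

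Over all 8 clusters, 4 regions fell in 5.64 Mb, or 0.709 per Mb (0.193 to 1.82). The rest of chromosome 7 held 3776 regions in 136.2 Mb, or 27.7 per Mb (26.8 to 28.6). The density in the clusters was 0.0256 of that in the rest (0.00697 to 0.0655), a difference of 39.1-fold, and at the density of the rest the clusters would have held 156.3 regions. The ratio was 0.0590 against windows of the rest with the GC of the clusters, 0.0627 when genes up to 1 Mb apart were joined, and 0.0950 with clusters extended by 50 kb, and it was 0.0128 without the regions at other genes in the clusters. Regions covered 0.0567% of the cluster sequence (3.2 kb) and 6.20% of the rest, and 0.127% of the clusters when genes up to 1 Mb apart were joined. The 4 regions were 400 to 1200 bp wide with a median of 800 bp, and those of the rest had a median of 1400 bp with quartiles of 800 and 2600 bp. The clusters take up 3.98% of the chromosome.

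**Figure D3:**
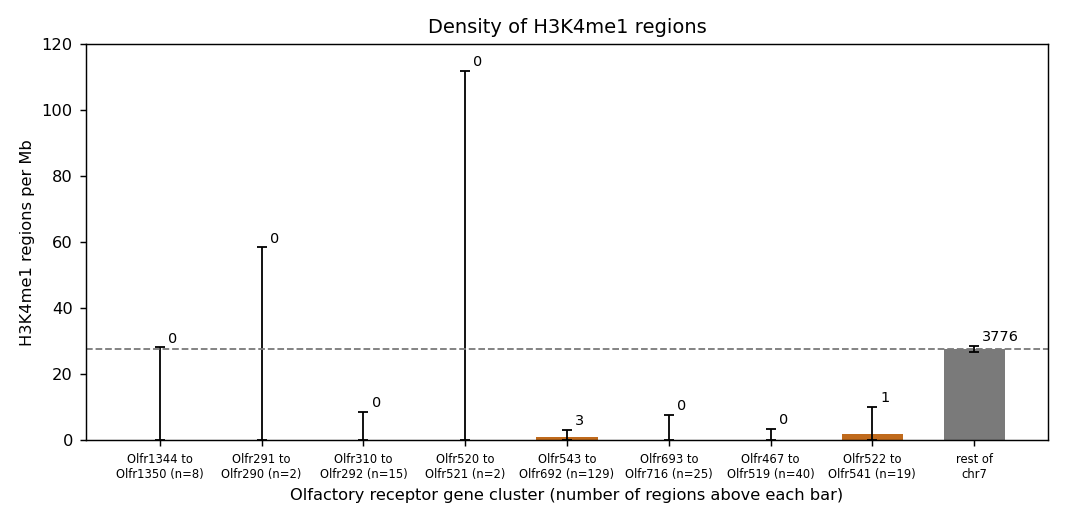
H3K4me1 regions per Mb of sequence (y axis) in each olfactory receptor cluster and in the rest of chromosome 7, with exact Poisson 95% intervals as error bars and the number of regions above each bar. The dashed line is the density of the rest, 27.7 per Mb, and the exact upper bound of 5 clusters lies under it.

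Of the 4 regions, 2 touched genes of another family, 1 was counted to Olfr530 and 1 to no gene. The first lay in Trim21, a cytosolic antibody receptor and ubiquitin ligase, 583 bp from its TSS. Another covered the TSS of Trim6, also a ubiquitin ligase of the tripartite motif family, and had the highest GC (56.3%) and most CpG (23) of the 4. The remaining pair were those beyond Olfr78 and beside Olfr530. The clusters hold 32 other protein-coding genes, of which 3 had a region by the rule, against 61.7% of all chromosome 7 genes other than members and 67.1% of all protein-coding genes: Trim21, Trim6 and Gm16532, whose 3 regions lie before its cluster. Of 13 Trim genes in the clusters, 2 had a region. The 28 other genes of the class I locus had 2 with a region, and the others lacked one.

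The distance from a cluster edge to the first region outside it varied from 2.75 to 2329.8 kb. Pooled over all edges, in the first 100 kb outside the clusters 33 regions were found, or 20.6 per Mb (14.2 to 29.0), in the next 100 kb 33.8 per Mb and between 200 and 300 kb 39.4 per Mb. From there to 1 Mb the density ran between 22.9 and 47 per Mb. The class I locus was bounded by a region at Stim1, the calcium sensor of the endoplasmic reticulum, 77.5 kb before Olfr543, and by a region at Fam160a2 18.3 kb after Olfr692. The Olfr467 to Olfr519 cluster lay between regions at Cyb5r2, 56.5 kb before, and Eif3f, a translation factor subunit, 41.1 kb after. A region at Sprn lay 7.44 kb before Olfr522 and one at Zfp941 115.4 kb after Olfr541. The cluster from Olfr693 to Olfr716 had the nearest region on its right side at Syt9, a synaptotagmin of secretory vesicles, 221.8 kb away, and on its left at Mrpl17, 861.0 kb away. The cluster from Olfr310 to Olfr292 had none within 1509.6 kb before and 551.1 kb after it, where the next region was at Nox4. The same region was the first after the pair Olfr291 and Olfr290, at 2329.8 kb, and the cluster from Olfr1344 to Olfr1350 had its first at Peg3, an imprinted gene, 136.8 kb after. These edge genes were picked with their values already known.

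**Figure D4:**
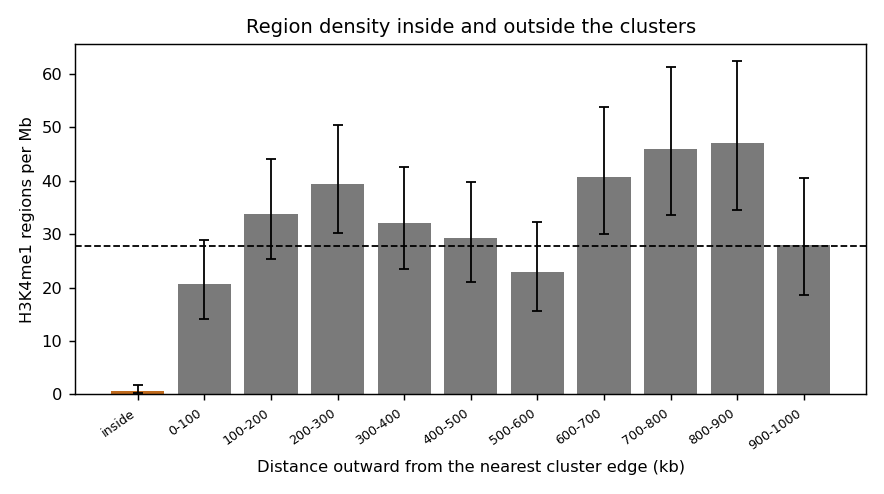
H3K4me1 regions per Mb (y axis) inside the olfactory receptor clusters of chromosome 7 and in 100 kb steps outward from the nearest cluster edge (x axis, kb). Error bars are exact Poisson 95% intervals, the dashed line is the density of the rest of the chromosome, and the density steps from 0.709 inside to 20.6 per Mb in the first 100 kb.

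Seen from the regions, the members lay in 11 of the stretches between neighbouring regions on chromosome 7, whose median length was 9.8 kb. Of 15 stretches over 1 Mb without a region, 5 held olfactory receptor genes, and 194 of the 240 members lay in these 5. Stretches without members held genes too, 1 of them 107 protein-coding genes. The share of other chromosome 7 genes in such stretches was not counted. The stretch from 109887601 to 111367200 (1.48 Mb) held 76 members and started at the region beyond Olfr78. It ended at the region over Trim6, after which 36 members lay in the next 1.17 Mb. Stretches of 1.18 and 1.55 Mb held 40 and 25 members. The longest with receptor genes, 2.49 Mb from 91907601 to 94395000, held 17.

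Several properties of the sequence differed between members and other genes. Short reads that match several copies cannot be placed at one site, and the share of 32 bp words found once in the genome is a measure of this. Over each gene with 2 kb on both sides, members had a median of 91.4% (quartiles 83.6 and 95.7%), close to the 93.2% of the other chromosome 7 genes, while the vomeronasal receptor genes had 33.5%. Among the 134 members with at least 90% of words found once, 1 had a region (0.746%, 0.0189 to 4.09%), and among the other genes of the chromosome with this property 967 of 1185 did (81.6%). Counted over whole clusters the share of words found once was 72.8%, against 78.7% in the rest, and per Mb of such words the density ratio was 0.0277.

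The members are AT-rich and short. Their median GC with 2 kb flanks was 37.9%, against 47.1% in the other genes of the chromosome, and their median length was 966 bp, against 11593.5 bp. Among other chromosome 7 genes with a GC share between 34.0 and 45.0%, the 5th to 95th percentile of the members, 250 of 688 had a region (36.3%), and with at least 90% of words found once as well 185 of 269 did (68.8%, 62.9 to 74.3%). Among those of 2 kb or shorter, 46 of 293 had a region (15.7%, 11.7 to 20.4%), and 46 of 199 (23.1%) with the vomeronasal genes left out. With both a length of up to 2 kb and at least 90% of words found once the count was 35 of 89 (39.3%, 29.1 to 50.3%). Of these subsets, those at 81.6 and 68.8% exceeded the 61.7% of all other chromosome 7 genes and the others were below it, and each was above the upper bound of 2.30% for the members. In windows of 100 kb with the GC of the clusters, the rest of the chromosome held 12.0 regions per Mb, which gives the ratio of 0.0590 above. GC and length moved with the result, and their part in it was not tested beyond these values.

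**Figure D5:**
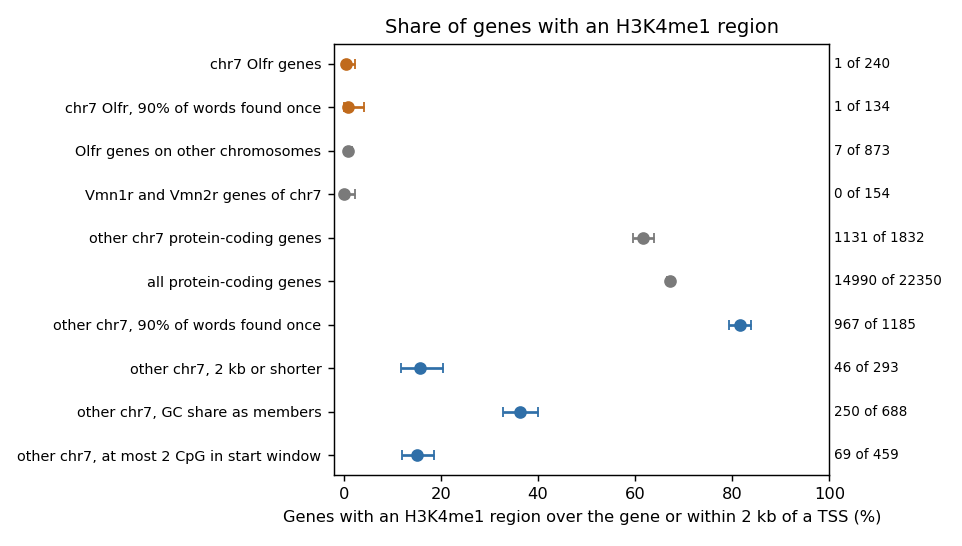
Share of genes (x axis, %) with an H3K4me1 region over the gene or within 2 kb of a TSS, for gene groups and for subsets of the other chromosome 7 genes (y axis), with exact binomial 95% intervals and counts at the right. Both groups of chromosome 7 olfactory receptor genes lie under 1%, and the vomeronasal receptor genes have 0 of 154. The lowest of the subsets set by sequence or length, with at most 2 CpG in the start window, has 69 of 459.

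The start windows of the members carried few CpG. Their median GC was 36.7% (quartiles 33 and 40%) with a median of 1 CpG, against 54.3% and 8 in the other chromosome 7 genes and 55.3% and 11 over all protein-coding genes. Of the 204 members with at most 2 CpG, 1 had a region (0.490%), and of the other chromosome 7 genes with so few CpG 69 of 459 did (interval 11.9 to 18.6%), or 69 of 341 with the vomeronasal genes left out (20.2%, 16.1 to 24.9%). The letters TAATTA, a core bound by homeodomain factors such as Lhx2, were found in 37 of 240 windows (15.4%, 11.1 to 20.6%), against 2.79% of the other chromosome 7 windows and 4.83% of all. The windows of the members are also richer in A and T, which was not adjusted for. The core bound by Ebf factors, TCCC and GGGA with any 2 bases between them, was found in 1 window (0.417%, 0.0105 to 2.30%). The other chromosome 7 windows had it in 1.20% and all windows in 0.895%, both inside that interval. In the 102 members whose model does not begin at the start codon, TAATTA was in 12 windows (11.8%, 6.23 to 19.6%) and the Ebf core in 0. That 0 allows up to 2.94% by a limit of 3 counts and 3.55% by the exact bound. Both cores were searched on both strands, and a match is no evidence of binding. In the RefSeq promoters of GRCm38.p6, which matched 203 of the 240 members, TAATTA was in 13.8% and in 5.29% of all 32841 promoters.

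The genes of the pathway that the receptors signal through, and those that regulate them, were also counted. Of 26 listed genes, 21 had a region by the rule (67.1% of all protein-coding genes did) and 15 had a covered TSS (39.1%), with a median of 3 regions a gene against 1 over all protein-coding genes. The interval of the 21 of 26 (60.6 to 93.4%) holds the 67.1%. The 17 genes of transduction and transport, with 12 (70.6%, 44.0 to 89.7%), were near it. The list is thus not set apart from other genes by the share with a region. The covered TSS and the number of regions a gene were not tested. In the transduction cascade, Gnal (the olfactory G protein α subunit) had 4, Adcy3 (the adenylyl cyclase) 2, Cngb1 (a channel subunit) 2, Ano2 (the chloride channel) 5 and Slc24a4 (a sodium and calcium exchanger) 4. Gnb1, a G protein β subunit used in all tissues, and the guanine exchange factor Ric8b had 10 each. The phosphodiesterases Pde1c and Pde4a had 9 and 5, the receptor transport proteins Rtp1 and Reep1 1 and 4, and Stoml3 1. The 5 without a region were the channel subunits Cnga2 (319.2 kb from a region) and Cnga4 (5.28 kb), the marker protein of mature neurons Omp (10.2 kb), Rtp2 (31.9 kb) and Gng13 (9.13 kb).

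All 9 regulators on the list had a region. The interval of 66.4 to 100% holds the 67.1% of all protein-coding genes, so the regulators are not set apart by this share. Among transcription factors these were Lhx2 with 6 and its cofactor Ldb1 with 2, Ebf1 with 6, Ebf2 with 4, Ebf3 with 6, Emx2 with 1 and Atf5 with 2. Lbr, the lamin B receptor that tethers heterochromatin, had 2, and Kdm1a, a demethylase of this mark, had 4. Many of these genes are used in other tissues and most are longer than a receptor gene, so the list and the members differ in more than their place in the pathway. Of the genes on the list, 8 also mark olfactory sensory neurons, and 4 of these 8 had a region (67.1% of all protein-coding genes did), too few to set apart from the other genes. Among islet genes, 13 of 15 had one, including Ins1, Ins2 and Pdx1, with Gcg and Sst as the exceptions. The share over all protein-coding genes was 67.1%, and the difference was not tested. A covered TSS was found in 5 of the 15 (39.1% of all genes). The median of 1 region per islet gene was that of all protein-coding genes. Of 5 leukocyte genes only Ptprc had a region (67.1% of all protein-coding genes did), again too few genes to set apart.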

How the data were processed

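H3K4me1 ChIP-seq of cytokine treated islets was analysed for 1 pooled library. Reads were aligned by the authors with bowtie2 to mm9 (Bowtie2 2.2.1 in the submitters' processing notes). They called enriched regions with ChromHMM (version and settings not given in the sources used here) and deposited positions alone. The methods also describe a filter on low FPKM, and whether it precedes the list is not stated. RNA samples were not analysed here.

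The 65709 regions were used as deposited, with starts counted from 1, and none passed the end of chromosome 7. Genes came from GENCODE M1. A gene was called when a region overlapped it or lay within 2 kb of any TSS. Regions were placed in clusters by their midpoint, and densities used sequence without N. Words of 32 bp were taken every 20 bp along chromosome 7 and counted in the whole genome on both strands. Shares have Clopper-Pearson intervals and densities exact Poisson intervals. The interval of the median distance comes from binomial ranks of the members. For a share of 0, a limit of 3 counts is given beside the exact bound. For a density of 0 the exact upper bound is the one plotted. With 1 library no test was run. Gene assignment, distances, cluster joining, word counts, the search for the Ebf core and the Poisson intervals were tested on simulated data. The other steps were not.

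Named were members with a region, the 5 nearest outside the limit, Olfr78, Olfr558 and Olfr17, other genes in clusters touched by a region, and all genes of the pathway list; Olfr544, the 5 most distant members and genes at cluster edges were added after their values were seen. Members and lists were chosen with earlier results of these data known. Python 3.11.15, numpy 2.4.6, scipy 1.17.1, numba 0.67.0 and matplotlib 3.10.9 were used.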

Additional observations from a re-analysis of the deposited data

How the results depend on the processing

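Of 35 alternative values for 8 results, 24 moved by less than their interval, or by less than 1.5 times for a count. The count of 1 member with a region was 0 with a limit of 1 kb, with overlap of the gene body alone, with regions of at least 1000 bp and when 50% of a region's width had to lie in the gene or window, 2 at 5 kb, 7 at 20 kb and 2 within 2 kb of either gene end (chosen after seeing the data). The call of Olfr530 thus rests on the limit and on a narrow region. The density ratio ran from 0.0128 to 0.0950 over 12 alternatives, the highest with clusters extended by 50 kb, which took in 17 regions. The covered share was 0.127% with gaps of up to 1 Mb, which take in more sequence between clusters. With regions of at least 1000 bp the median distance was 450.0 kb. By the feature at a region's midpoint, 0 regions in clusters touched an olfactory receptor gene. A stricter calling threshold could not be run because the list holds no score, and no replicate could be left out. No paired analysis was possible because only 1 pooled library was analysed. An absent region can reflect depth or the calling threshold, and neither is known.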

Other observations

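Several other long stretches of chromosome 7 without an H3K4me1 region lay over tandem gene families. Of the 10 stretches over 1 Mb that held no olfactory receptor gene, those of 5.75 and 4.33 Mb held 42 and 64 vomeronasal receptor genes, with 25.8% and 14.1% of words found once in the genome. A stretch of 1.68 Mb held the Psg and Ceacam genes, which encode glycoproteins of the placenta and cell adhesion proteins, with 54.2% of words found once. One of 1.59 Mb held the Mrgpr genes, receptors of sensory neurons and mast cells, with 63.5%, and one of 2.96 Mb the Abp genes for secreted androgen-binding proteins, with 31.1%. A stretch of 2.41 Mb held only 5 protein-coding genes, among them the imprinted gene Snrpn, with 62.9%. Genes of other types were not counted in these stretches. The 5 stretches with olfactory receptor genes had 53.8 to 75.1% of words found once. The longest stretch, 7.75 Mb, had only 0.752 Mb of sequence without N, so its length says little about the mark. These stretches were chosen after their values were seen, and the part of read placement in them was not tested.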
